A study of Danio rerio with 60 samples.

Results

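Larvae kept in 40.5 µM resorcinol were compared with larvae kept in carrier alone, across all genes. Of the 60 samples in the series, 5 were exposed at 40.5 µM and 5 were their carrier controls, so the comparison used 10 samples. Each sample was RNA from a pool of 20 whole zebrafish larvae of the AB/Tub genotype. Exposure lasted from 72 to 120 hours post-fertilization (hpf), in buffered medium in sealed multiwell plates. The controls received 1% carrier over the same hours. The labels do not name the carrier, and they give no carrier percentage for the dosed pools. Resorcinol was also given at 0.0405, 0.405, 4.05 and 405 µM, with 5 pools each, and these pools entered the fit and a few comparisons below. The titles and treatment labels of the dosed resorcinol pools carry the short name of raloxifene, the other compound of the series. They were therefore grouped by their descriptions, which name resorcinol and the dilution.

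Resorcinol is a small phenol known as an inhibitor of thyroid peroxidase, the enzyme that builds thyroid hormone on thyroglobulin. Thyroid hormone acts through nuclear receptors, is carried in blood by proteins such as transthyretin, and is activated or inactivated by deiodinases. In the vertebrate retina it takes part in setting which cone opsin a cone makes. Larval zebrafish see mainly with cones, which carry ultraviolet, blue, green or red opsins. Light on an opsin closes a cGMP-gated channel, and calcium-sensing guanylate cyclase activating proteins then help restore cGMP.

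The values are normalized counts, that is reads per gene divided by 1 factor per library. The 10 libraries held 7.92 to 9.64 M reads. The deepest resorcinol library, 405 µM replicate 1, held 30.74 M reads. It entered every comparison with 405 µM, and the part of its depth in them was not tested. The replicate numbers 1 to 5 pair each 40.5 µM pool with a control pool, and the difference was tested within pairs (limma, Benjamini-Hochberg adjusted p under 0.05 for a call). Of 27488 genes, 19583 reached 10 normalized counts in 5 or more of the 30 resorcinol libraries and were tested. Fold changes are on the scale log2(normalized count + 1), which understates the change of low genes. No label ties a replicate to a spawning of its own, so the p-values cover only pool-to-pool spread, which may be partly technical. The pools hold every tissue, so fewer cells of a type and less RNA per cell cannot be told apart in any result below. Skeletal and heart muscle genes (30 of 30), liver genes (36 of 38) and lens crystallins (49 of 62) passed the filter on low values.

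The 40.5 µM library labelled replicate 3 stood apart, so each result was computed with all 5 pairs and with the 4 pairs that remain without replicate 3. Replicate 3 was left out because earlier results of these data showed it to stand apart. The 4-pair p-values do not allow for that choice and may be too small. Leaving it out removes the replicate 3 libraries of every dose from the fit. With 5 pairs, 13 genes were called, 0.0664% of those tested, of which 12 were lower (0.0613%) and 1 was higher (0.00511%) at 40.5 µM. With 4 pairs, 42 genes were called, or 0.214%, of which 38 were lower (0.194%) and 4 higher (0.0204%). All 13 calls of the 5-pair fit were among the 42. Of the 42, 20 differed by more than 2-fold, and 19 of these were lower. When replicate 1, 2, 4 or 5 was left out of the 5-pair fit, limma called no gene, and 974 to 1234 genes had an unadjusted p under 0.05. The 4-pair count was 21, 20, 22 and 23 when replicate 1, 2, 4 or 5 was left out in addition. In these 4 smaller fits, 15 genes were called every time.

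Those 15 genes were opn1mw2, GUCA1A (ENSDARG00000100747), guca1d, guca1g, KCNV2 (ENSDARG00000062906), pde6ha, rx1, THRA (ENSDARG00000000151), dio3b, nfil3-6, STXBP4, FHL2 (ENSDARG00000003991), SNX8 (ENSDARG00000078057), ano2b and si:ch211-276a17.5. All were lower at 40.5 µM. The first 7 belong to the lists of photoreceptor genes. THRA and dio3b belong to the thyroid list. Of the 19583 genes tested, 102 were on the 6 photoreceptor lists and 14 on the thyroid list. The lists were chosen with earlier results of these data known, so these memberships describe the genes and add no support. When the pairing was left out of the 4-pair fit, 8 genes were called: opn1mw2, GUCA1A, guca1d, KCNV2, nfil3-6, STXBP4, FHL2 and si:ch211-276a17.5. The other 7 of the 15 lost their call: guca1g, THRA and dio3b had limma adjusted p = 0.0749, 0.0749 and 0.0747, and rx1, pde6ha, SNX8 and ano2b had 1.0. With the 40.5 µM and control libraries alone in the 4-pair fit, guca1d, guca1g, dio3b, pde6ha, SNX8 and ano2b were not called (limma adjusted p = 0.0835, 0.0783, 0.0783, 0.55, 0.0658 and 0.0982).

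In all 38 genes that fell, the pair of replicate 3 showed the smallest fall of the 5 pairs. Over these genes the median log2 difference between 40.5 µM and control was -1.08, -1.02, -1.5 and -0.65 in pairs 1, 2, 4 and 5, and -0.05 in pair 3. In 23 of the 38 genes the 40.5 µM replicate 3 library was below control replicate 3. The 38 genes were chosen without replicate 3, so that pair was not used to choose them, whereas the other 4 medians follow from the choice. Choosing genes for falls in the other 4 pairs itself favours pair 3 showing the smallest fall. Replicate 3 was also known from earlier results of these data to stand apart. The count over the 38 genes and the median of pair 3 are therefore no independent check.

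**Figure D1:**
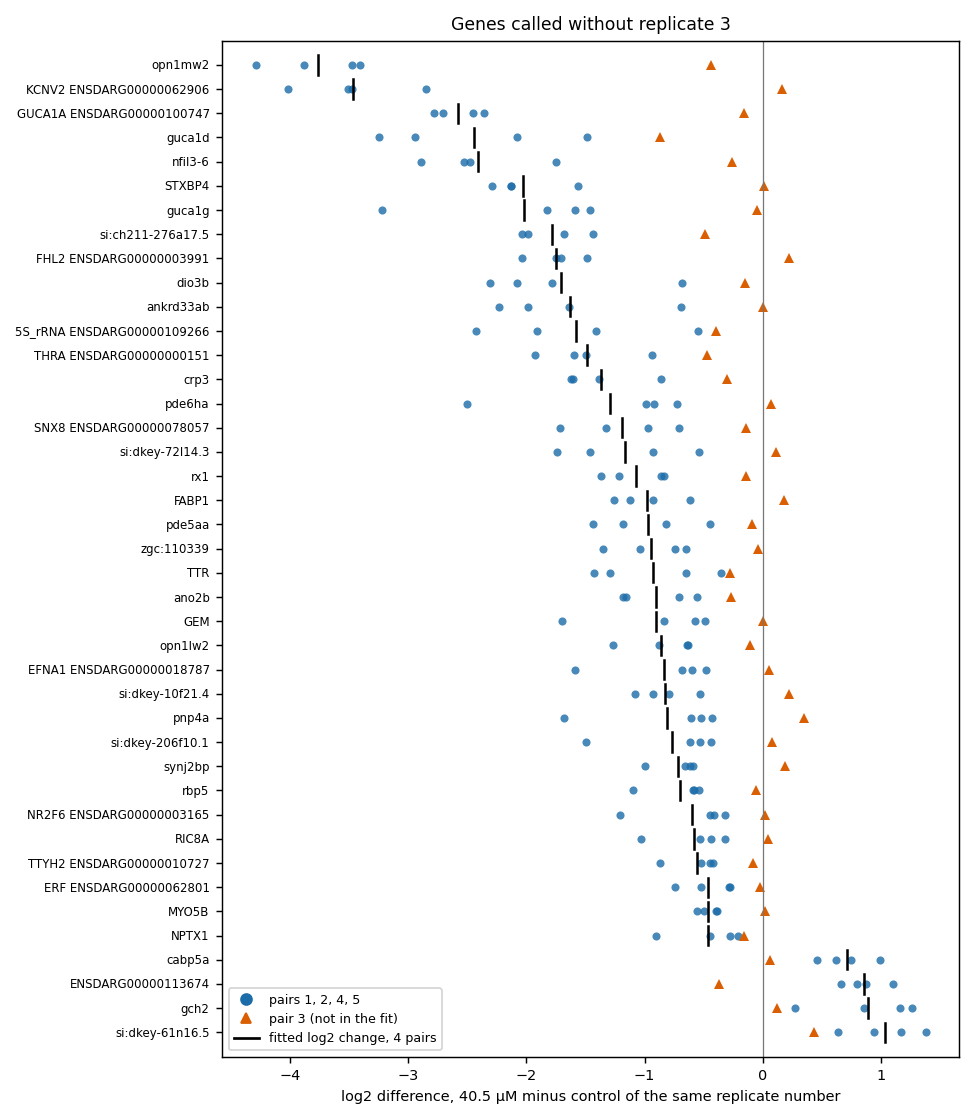
Log2 difference between the 40.5 µM and control libraries of the same replicate number, for 41 of the 42 genes called with 4 pairs. Circles are pairs 1, 2, 4 and 5, triangles are pair 3 and bars are the fitted change. In every falling gene drawn, the triangle is the point with the smallest fall.

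The 4.05 µM library labelled replicate 3 departed from its own group in the other direction. It was below control replicate 3 in 38 of the 38 genes, with a median log2 difference of -0.77. The other 4.05 µM libraries had medians of -0.07, -0.32, -0.36 and -0.02. The 405 µM replicate 3 library had a median of -0.82, against -0.75, -0.96, -1.04 and -0.62 in the other 405 µM libraries. At 0.405 and 0.0405 µM the replicate 3 libraries had medians of 0.12 and 0.1. The other libraries ran from -0.46 to 0.08 at 0.405 µM and from -0.26 to 0.07 at 0.0405 µM, with replicate 4 the lowest at both doses. All replicate 4 medians share control replicate 4, and its part in them was not tested. The labels were used as given, and how the 4.05 and 40.5 µM replicate 3 libraries came to stand apart was not tested. Leaving out these libraries alone, and keeping the other replicate 3 libraries in the fit, gave 45 calls.

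**Figure D2:**
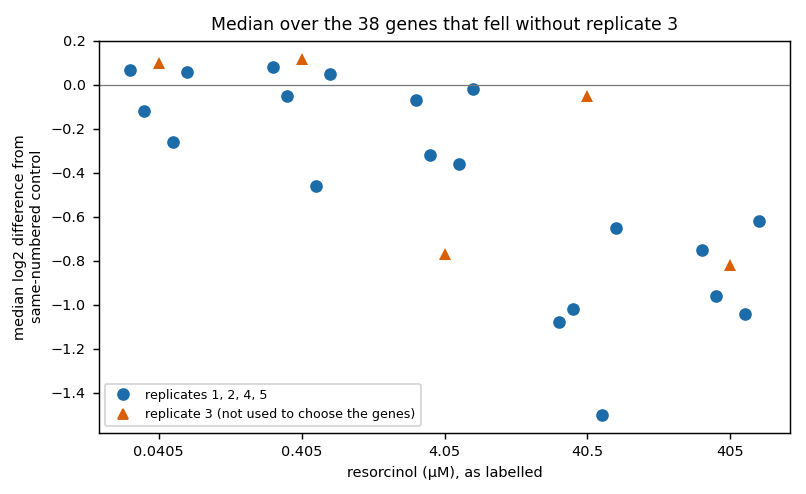
Median log2 difference from the same-numbered control over the 38 genes that fell with 4 pairs, for every dosed resorcinol library by labelled dose in µM. The 40.5 µM replicate 3 triangle sits at -0.05 and the 4.05 µM replicate 3 triangle at -0.77, each among the values of the other dose. These positions are not specific to the other dose. The 40.5 µM replicate 3 triangle also lies within the range of each dose below 4.05 µM. The 4.05 µM replicate 3 triangle also lies within the range of the highest dose.

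Among the opsins, the green cone opsin gene opn1mw2 (ENSDARG00000044280) and the red cone opsin gene opn1lw2 (ENSDARG00000044861) fell at 40.5 µM. opn1mw2 had normalized counts of 34.3, 58.7, 383, 87.8 and 53.2 in 40.5 µM replicates 1 to 5, against 689, 634, 521, 1303 and 603 in control replicates 1 to 5. The groups did not overlap, even with replicate 3, whose 40.5 µM library was the highest of its group. Without replicate 3, opn1mw2 was 13.6-fold lower (log2 change -3.76 ± 0.24 SE, limma adjusted p = 2.57e-09, lower in 4 of 4 pairs). With all 5 pairs it was 8.58-fold lower (log2 change -3.10 ± 0.48, limma adjusted p = 0.00759).

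The red opsin gene opn1lw2 changed less. It had 856, 1142, 1853, 1660.1 and 1056 normalized counts in 40.5 µM replicates 1 to 5, against 1582, 1765, 2005, 4008 and 1647 in control replicates 1 to 5. The groups overlapped, and control replicate 4 was far above the other controls. The log2 change was -0.86 ± 0.14 with 4 pairs (limma adjusted p = 0.00422) and -0.71 ± 0.14 with 5 pairs (limma adjusted p = 0.0358). Leaving out replicate 4 as well ended the call (log2 change -0.72, limma adjusted p = 0.161). Red and green opsin genes lie in tandem copies in zebrafish, so the division of reads between close copies is uncertain. The other copies opn1mw3, opn1mw4 and opn1lw1 were below the filter, with at most 6.32 normalized counts in any of the 10 libraries.

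None of the other opsins tested was called. The green opsin gene opn1mw1 had a log2 change of 0.06 ± 0.15, the short-wavelength opsin gene OPN1SW of 0.18 ± 0.18, and the blue opsin gene opn1sw2 of -0.34 ± 0.15 (4 pairs, limma adjusted p = 0.969, 0.897 and 0.843). opn1mw1 had 6146, 4557, 3552, 6096 and 4682 normalized counts at 40.5 µM, against 4415, 3322, 3505, 8997 and 5178 in controls, in the order of replicates. Its groups overlapped, and the highest value was again control replicate 4. Control replicate 4 was the highest control for OPN1SW and opn1sw2 too, and its part in the results was not tested beyond leaving it out. In all, 2 of the 8 opsins tested fell and none rose with either 4 or 5 pairs, beside 0.214% of all genes called with 4 pairs and 0.0664% with 5. The opsins had a median log2 change of -0.32 (4 pairs), against -0.000835 over all genes tested.

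The guanylate cyclase activators gave 3 falls among 10 tested members, with 4 pairs and with 5, beside 0.214% and 0.0664% of all genes called. GUCA1A (ENSDARG00000100747) had 18.9, 19.3, 84.2, 21.5 and 11.0 normalized counts in 40.5 µM replicates 1 to 5, against 129, 138, 94.2, 122 and 61.0 in the controls. Only the replicate 3 library at 40.5 µM reached the control values, and without that replicate the groups did not overlap. The change was 5.96-fold with 4 pairs (log2 change -2.58 ± 0.18, limma adjusted p = 9.63e-09) and 4.26-fold with 5 pairs (log2 change -2.09 ± 0.35, limma adjusted p = 0.00878).

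guca1d had 3.54, 6.42, 32.5, 12.5 and 5.02 normalized counts at 40.5 µM, against 42.3, 55.9, 60.3, 37.0 and 24.4 in controls, and its log2 change was -2.44 ± 0.29 (4 pairs, limma adjusted p = 4.43e-05). guca1g had 37.8, 35.8, 112, 27.8 and 23.1 at 40.5 µM, against 116, 129.6, 115, 267 and 65.0 in controls, with a log2 change of -2.02 ± 0.22 (4 pairs, limma adjusted p = 1.33e-05). In both, replicate 3 was the highest 40.5 µM library, and the groups separated without it. Both were also called with 5 pairs, at log2 changes of -2.13 and -1.63 (limma adjusted p = 0.03 and 0.0308).

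A second gene with the symbol GUCA1A (ENSDARG00000101567) moved the other way without passing the test. It had 80.3, 59.6, 28.4, 91.4 and 43.1 normalized counts at 40.5 µM, against 31.1, 35.8, 45.5, 50.1 and 12.2 in controls. It was higher in 4 of 4 pairs and lower in the pair of replicate 3. The log2 change was 1.16 ± 0.28 (4 pairs, limma adjusted p = 0.152). The other 6 members of this list, further activators and the photoreceptor guanylate cyclases, had log2 changes between -0.20 and 0.46 and none was called.

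**Figure D3:**
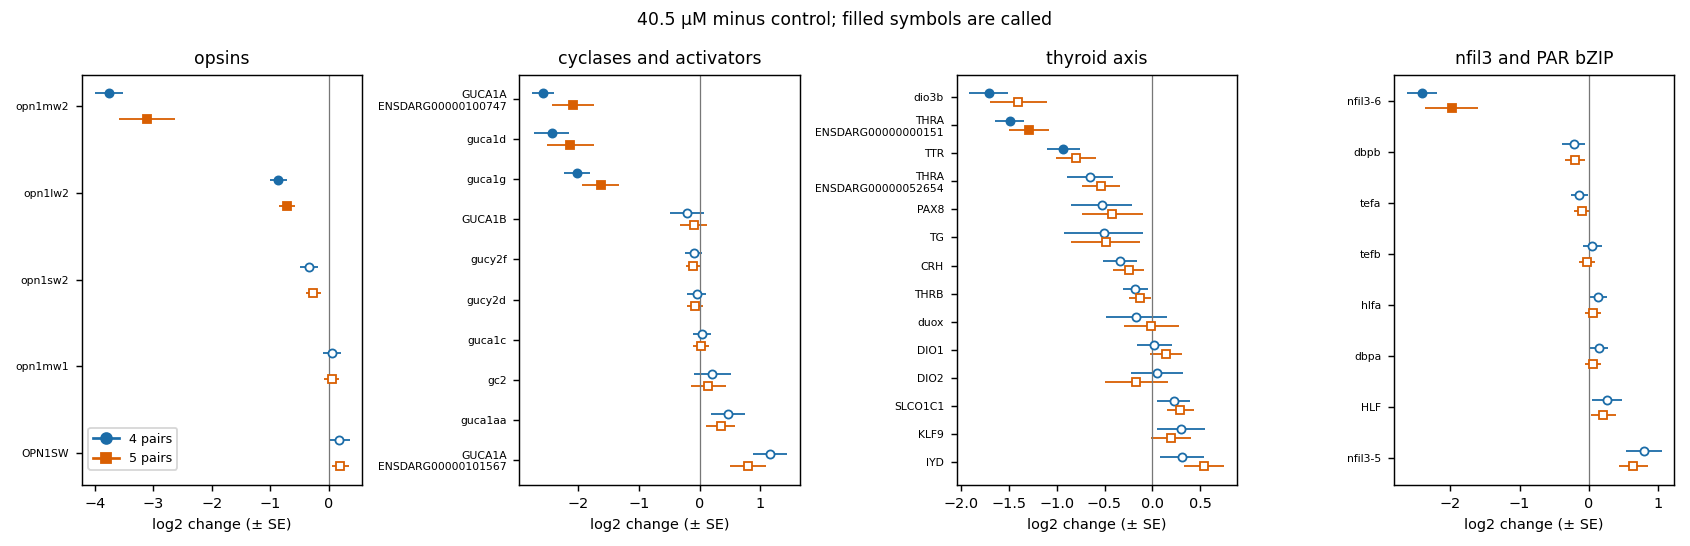
Log2 change between 40.5 µM and control with its standard error, for tested members of 4 gene lists, with 4 pairs (circles) and 5 pairs (squares). Filled symbols are called. opn1mw2, GUCA1A (ENSDARG00000100747), dio3b, THRA (ENSDARG00000000151) and nfil3-6 sit apart from most members of their own list.

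Among 29 partners and channels of cone phototransduction, 2 fell and none rose with 4 pairs, where 0.214% of all genes tested were called, and the list median log2 change was 0.00. With 5 pairs 1 of the 29 fell, KCNV2, where 0.0664% of all genes were called. KCNV2 (ENSDARG00000062906), a modulatory potassium channel subunit of photoreceptors, had 8.27, 5.5, 55.8, 7.17 and 3.01 normalized counts in 40.5 µM replicates 1 to 5. Controls 1 to 5 had 65.9, 71.7, 49.7, 131 and 44.7. Apart from replicate 3, every 40.5 µM library was below every control, and the change was 11.0-fold (log2 change -3.47 ± 0.23, limma adjusted p = 4.07e-09). With 5 pairs it was 6.68-fold (log2 change -2.74 ± 0.51, limma adjusted p = 0.0308). A second gene with the symbol KCNV2 (ENSDARG00000076644) was tested and not called in either fit.

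pde6ha encodes an inhibitory subunit of the cone phosphodiesterase. PDE6H (ENSDARG00000056791), on the same list, was tested and not called in either fit. pde6ha had 9258, 5106, 11154, 5100.4 and 5644 normalized counts at 40.5 µM, against 17522, 10119, 10656, 28906 and 9385 in controls. Replicate 3 was the highest at 40.5 µM and control replicate 4 the highest control. The log2 change was -1.29 ± 0.19 with 4 pairs (limma adjusted p = 0.00098) and -1.02 ± 0.22 with 5 pairs (limma adjusted p = 0.102). Leaving out replicate 4 as well gave -0.88 (limma adjusted p = 0.00108). The call was lost without the pairing (limma adjusted p = 1.0) and with the 40.5 µM and control libraries alone (0.55).

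The summed level of the 29 cone genes was 59536 to 83941 normalized counts in the 4 libraries at 40.5 µM, against 61273 to 139296 in the 4 controls. Of these genes, 14 had a log2 change above 0. None of 13 rod phototransduction genes was called, with a median of -0.03 and a range of -0.45 to 0.14. None of 21 retinoid cycle genes was called, although their log2 changes ran from -1.47 to 1.3. Of 21 photoreceptor transcription factors, only the retinal homeobox gene rx1 was called, beside 0.214% of all genes tested with 4 pairs.

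rx1 had 986, 443, 802, 734 and 365 normalized counts at 40.5 µM, against 2295, 793, 881, 1904 and 666 in controls. Levels differed between replicates by more than between groups, and each 40.5 µM library was below its own control. Its log2 change was -1.07 ± 0.15 (4 pairs, limma adjusted p = 0.000683) and -0.89 ± 0.16 (5 pairs, limma adjusted p = 0.026). Over the 6 photoreceptor lists together, 8 of 102 tested members were called with 4 pairs, or 7.84%, beside 0.214% of all genes tested. These 8 are 19% of the 42 calls. The gene lists, these 6 and the others, were chosen with earlier results of these data known. A higher share of calls on them therefore adds no support.

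Of 21 genes of other retinal neurons and Müller glia, 1 rose with 4 pairs, where 0.0204% of all genes tested were called higher. The gene that rose was cabp5a, for a calcium-binding protein known from bipolar cells. Its log2 change was 0.71 ± 0.13 (4 pairs, limma adjusted p = 0.0116). It was higher in 4 of 4 pairs, but the call was lost without replicate 1, 2 or 5 and with all 5 pairs (limma adjusted p = 0.108). None of 9 pineal photoreceptor genes was called, beside 0.214% of all genes tested with 4 pairs.

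In the thyroid list, 3 of 14 tested genes fell and none rose with 4 pairs, where 0.194% of all genes tested were called lower, and the list median was -0.26. With 5 pairs 1 of the 14 fell, THRA, where 0.0613% of all genes were called lower. The thyroid hormone receptor gene THRA (ENSDARG00000000151) had 72.0, 45.9, 111, 73.5 and 58.2 normalized counts in 40.5 µM replicates 1 to 5, against 220.2, 177, 153, 209.8 and 113 in the controls. The groups did not overlap, and replicate 3 again had the highest 40.5 µM value. THRA was 2.81-fold lower with 4 pairs (log2 change -1.49 ± 0.15, limma adjusted p = 3.03e-06) and 2.44-fold lower with 5 pairs (log2 change -1.29 ± 0.21, limma adjusted p = 0.00759).

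The gene dio3b, for a deiodinase that inactivates thyroid hormone, had 83.9, 75.2, 197, 40.3 and 134 normalized counts at 40.5 µM, against 357, 260.3, 219, 204 and 215 in controls. The highest 40.5 µM library, replicate 3, was just below the lowest control. dio3b was 3.27-fold lower with 4 pairs (log2 change -1.71 ± 0.20, limma adjusted p = 4.26e-05). With 5 pairs the log2 change was -1.40 ± 0.30 and missed the threshold (limma adjusted p = 0.0869).

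Transthyretin, TTR, had 27.2, 169.7, 266, 34 and 508 normalized counts at 40.5 µM, against 74.7, 268, 324, 84.6 and 648 in controls. Replicates differed by more than 8-fold within each group, the groups overlapped, and each 40.5 µM library was below its control. The log2 change was -0.93 ± 0.17 (4 pairs, limma adjusted p = 0.0133), and the call was lost without replicate 1, 2 or 4, by edgeR (adjusted p = 0.125) and with 5 pairs (limma adjusted p = 0.272). TTR is also on the liver list. The 38 liver genes summed to 18902 to 137098 normalized counts in the 4 libraries at 40.5 µM, against 16632 to 163416 in controls, and the part of this spread in the TTR result was not tested.

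The remaining thyroid genes did not pass. The second THRA gene (ENSDARG00000052654) had a log2 change of -0.65 ± 0.24 (4 pairs, limma adjusted p = 0.685) and the other receptor, THRB, of -0.18 ± 0.13 (limma adjusted p = 0.871). Thyroglobulin, TG, had a log2 change of -0.51 ± 0.41, and the activating deiodinases DIO1 and DIO2 had 0.02 ± 0.18 and 0.05 ± 0.27 (limma adjusted p = 0.872, 0.991 and 0.985). The iodide-recycling enzyme IYD had 0.31 ± 0.23 and KLF9, a known thyroid hormone target, had 0.30 ± 0.25 (limma adjusted p = 0.871 and 0.875). The thyrotropin receptor TSHR, the thyrotropin subunits TSHB and CGA, the iodide transporter SLC5A5 and the transcription factor hhex were below the filter. In the 40.5 µM and control libraries they had at most 12.8 normalized counts. They were not tested.

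The bZIP factor gene nfil3-6 was among the largest falls. Its relatives are known as transcriptional repressors that share DNA sites with the clock-linked PAR bZIP activators. nfil3-6 had 183, 308, 1090.1, 267 and 197 normalized counts at 40.5 µM, against 1363, 1783, 1309, 1494 and 662 in controls. Replicate 3 was more than 3-fold above every other 40.5 µM library, and without it the groups did not overlap. The change was 5.32-fold with 4 pairs (log2 change -2.41 ± 0.22, limma adjusted p = 7.54e-07) and 3.95-fold with 5 pairs (log2 change -1.98 ± 0.38, limma adjusted p = 0.0351). Of 8 tested members of this list 1 fell and none rose in either fit, beside 0.214% (4 pairs) and 0.0664% (5 pairs) of all genes called. nfil3-5 had a log2 change of 0.79 ± 0.26 (limma adjusted p = 0.594), and the 6 PAR bZIP genes lay between -0.22 and 0.26. None of 24 circadian clock genes was called, with a median of 0.05 and a range of -0.23 to 0.37.

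Several genes outside these lists fell by more than 2-fold. STXBP4, a syntaxin-binding protein gene, had 17.7, 24.8, 88.3, 28.7 and 22.1 normalized counts at 40.5 µM, against 90.8, 112, 87.9, 129 and 67.1 in controls. FHL2 (ENSDARG00000003991), a LIM-domain protein gene, had 20.1, 26.6, 98.5, 19.7 and 40.1 at 40.5 µM, against 69.7, 113, 84.7, 66.8 and 115 in controls. Their log2 changes with 4 pairs were -2.03 ± 0.24 and -1.75 ± 0.17 (limma adjusted p = 4.26e-05 and 2.13e-06). In both, replicate 3 at 40.5 µM was at the control level while the other 4 libraries were below all controls. With 5 pairs neither was called (limma adjusted p = 0.0506 and 0.139).

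The uncharacterized gene si:ch211-276a17.5 had 116, 78.0, 216, 112 and 64.2 normalized counts at 40.5 µM, against 315, 313, 305, 463 and 207 in controls. Its log2 change was -1.78 ± 0.18 with 4 pairs and -1.53 ± 0.24 with 5 pairs (limma adjusted p = 3.56e-06 and 0.00759). Without replicate 3 all its 40.5 µM values were below all control values. The sorting nexin gene SNX8 (ENSDARG00000078057) had a log2 change of -1.19 ± 0.12 with 4 pairs and -0.98 ± 0.19 with 5 pairs (limma adjusted p = 2.13e-06 and 0.0351).

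Further falls held in fewer settings. ankrd33ab had a log2 change of -1.63 ± 0.27 (4 pairs, limma adjusted p = 0.00476). In mouse, Ankrd33 is known as a photoreceptor repressor. The call of ankrd33ab was lost without replicate 1, 2 or 5. The C-reactive protein gene crp3 had -1.37 ± 0.28, and its call was lost without any 1 of replicates 1, 2, 4 and 5 (4 pairs, limma adjusted p = 0.0301). A 5S_rRNA gene (ENSDARG00000109266) was called in both fits. It had -1.58 ± 0.30 with 4 pairs and -1.34 ± 0.27 with 5 pairs (limma adjusted p = 0.0178 and 0.0466). It is 1 of many near-identical copies in libraries selected for poly(A), so its level is uncertain, and its call was lost without replicate 1, 2 or 4. The other 16 falls, outside the rule for naming genes, had log2 changes between -1.17 and -0.46. Among them was ano2b, of the anoctamin family of chloride channels, named here after its values were seen, with -0.90 ± 0.14 (limma adjusted p = 0.00268).

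With 4 pairs, 4 genes rose. The uncharacterized gene si:dkey-61n16.5 had 692, 726, 419, 769.6 and 437 normalized counts at 40.5 µM, against 265, 322, 310.1, 495 and 228 in controls. It was higher in 5 of 5 pairs although the groups overlapped, and it was the rise called in both fits, at log2 changes of 1.03 ± 0.17 and 0.91 ± 0.18 (limma adjusted p = 0.00487 with 4 pairs and 0.0351 with 5). Its call was lost without replicate 1 or 2. gch2, for a GTP cyclohydrolase of yellow pigment synthesis, had 287, 394, 189, 139.8 and 468 at 40.5 µM, against 119, 217, 174, 116 and 208 in controls (4 pairs, log2 change 0.89 ± 0.15, limma adjusted p = 0.00726). Its call was lost without replicate 1, 2 or 5. ENSDARG00000113674, with no symbol, had a log2 change of 0.86 ± 0.17 (limma adjusted p = 0.0267), and its call was lost without any 1 of replicates 1, 2, 4 and 5. The fourth was cabp5a.

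All 38 falls were lower in every one of the 4 pairs, and all 4 rises were higher. Among all genes tested, 6.28% were lower and 5.32% higher in every pair. The 4 libraries at 40.5 µM did not overlap the 4 controls in 17 of the 38 falls and in 1 of the 4 rises. Over all genes tested, 0.301% were separated in that way with 40.5 µM lower and 0.235% with 40.5 µM higher. The calls chose these genes, so these counts describe them and add no support.

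Levels were also followed over the doses. Without replicate 3, opn1mw2 averaged 807 ± 332 normalized counts in controls, 729 ± 198 at 0.0405 µM, 737 ± 238 at 0.405 µM, 545 ± 210.3 at 4.05 µM, 58.5 ± 22.2 at 40.5 µM and 95.3 ± 26.6 at 405 µM (SD, n = 4 each). GUCA1A (ENSDARG00000100747) averaged 113 ± 35, 93.2 ± 21.0, 93.9 ± 20.6, 81.7 ± 13.3, 17.7 ± 4.57 and 17.3 ± 3.87 over the same steps (SD, n = 4 each). dio3b averaged 259 ± 69.7, 315 ± 125, 312 ± 64.7, 233 ± 62.2, 83.5 ± 38.9 and 109 ± 33.2 (SD, n = 4 each). In these 4 libraries a dose, the largest step in all 3 genes lay between 4.05 and 40.5 µM. The 3 genes were chosen for low values in the same 4 libraries at 40.5 µM. With replicate 3 the steps were less sharp. opn1mw2 then averaged 449.5 ± 281 at 4.05 µM, 123 ± 146 at 40.5 µM and 88.9 ± 27.1 at 405 µM (SD, n = 5 each). dio3b averaged 198 ± 94.1, 106 ± 60.9 and 104 ± 31.0 at the same 3 doses (SD, n = 5 each). The order of the means at the top 2 doses thus turned in both genes. Their log2 differences between 40.5 and 405 µM stayed negative with 5 pairs, at -0.07 ± 0.48 and -0.11 ± 0.30 (SE). GUCA1A (ENSDARG00000100747) averaged 31.0 ± 30 at 40.5 µM and 16.5 ± 3.87 at 405 µM with replicate 3 (SD, n = 5 each).

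**Figure D4:**
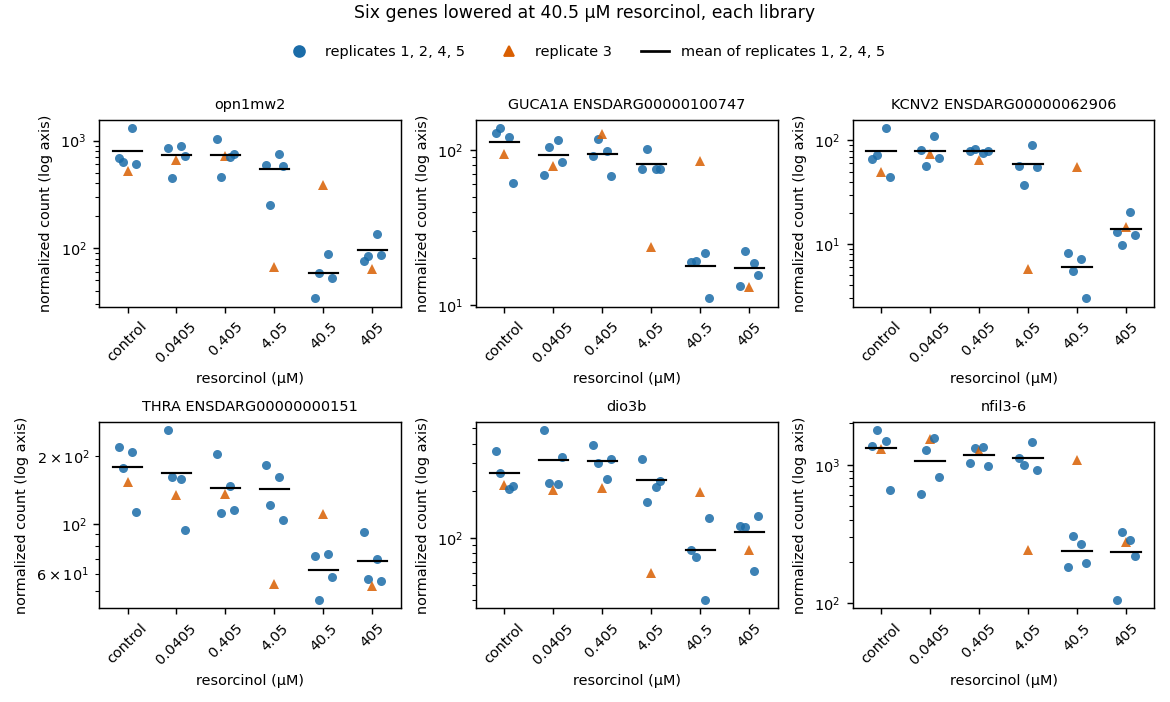
Normalized count (log axis) of 6 genes in every resorcinol library, by labelled dose in µM with the carrier control at the left. Circles are replicates 1, 2, 4 and 5, the bar is their mean and triangles are replicate 3. The 40.5 µM circles lie below the 4.05 µM circles in each panel. The 40.5 µM triangle lies above the circles of its dose and the 4.05 µM triangle below those of its dose.

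Between 40.5 and 4.05 µM, 20 genes were called with 4 pairs, or 0.102% of those tested, with 18 lower and 2 higher at 40.5 µM. All 20 were among the 42 called against control. Both comparisons use the same 4 libraries at 40.5 µM and the same fit, so this overlap adds no support. The largest differences were opn1mw2 at -3.17, KCNV2 (ENSDARG00000062906) at -3.12, nfil3-6 at -2.24 and GUCA1A (ENSDARG00000100747) at -2.17 on the log2 scale (limma adjusted p = 4.15e-08, 4.15e-08, 2.41e-06 and 2.73e-07). THRA (ENSDARG00000000151), dio3b and TTR were also called, at -1.17, -1.55 and -0.92 (limma adjusted p = 0.000194, 0.000256 and 0.0229). With all 5 pairs limma called no gene between these doses, and 769 had an unadjusted p under 0.05. The 20 calls were made only with the replicate 3 libraries left out.

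Between 40.5 and 405 µM, none of the 42 genes was called with 4 pairs (limma, lowest adjusted p = 0.295). Their levels were lower at 40.5 µM in 32 of the 38 falls with 4 pairs (median log2 difference -0.22) and in 25 with 5 pairs (median -0.07). The genes were chosen for low values in the same 4 libraries at 40.5 µM, which tilts the 4-pair counts and differences towards 40.5 µM being lower. For opn1mw2 the difference was -0.74 ± 0.24 with 4 pairs and -0.07 ± 0.48 with 5, and for KCNV2 (ENSDARG00000062906) -1.11 ± 0.23 and -0.52 ± 0.51. For GUCA1A (ENSDARG00000100747) it was 0.01 ± 0.18 with 4 pairs and 0.53 ± 0.35 with 5. For THRA (ENSDARG00000000151) it was -0.13 ± 0.15 with 4 pairs and 0.11 ± 0.21 with 5, so its sign turned with replicate 3. A missed threshold does not show that the levels were equal. Against the same controls, the 38 falls had a median log2 change of -0.04 at 0.0405 µM, -0.09 at 0.405 µM, -0.19 at 4.05 µM, -1.03 at 40.5 µM and -0.76 at 405 µM. Because the controls are shared, these medians are given side by side and not tested. Of the 42 genes, 23 were also called at 405 µM, where 0.22% of all genes tested were called, and none at the 3 lower doses. The calls at 40.5 and 405 µM rest on the same control libraries and the same fit, so this overlap adds no support.

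Over all genes, only HMOX1 was called between 40.5 and 405 µM with 4 pairs, and HMOX1 and prdx1 with 5 pairs, or 0.00511% and 0.0102% of those tested. Both were named after their values were seen. HMOX1, the stress-inducible heme oxygenase, averaged 34.1 ± 9.39 normalized counts in controls, 41.2 ± 18.3 at 40.5 µM and 97.5 ± 22.3 at 405 µM (SD, n = 5 each). The 40.5 µM mean was within 1 SD of the control mean. The log2 difference between 40.5 and 405 µM was -1.29 ± 0.20 with 4 pairs and -1.30 ± 0.18 with 5 pairs (limma adjusted p = 0.0321 and 0.00199). prdx1, an antioxidant peroxiredoxin gene, differed by -0.87 ± 0.15 with 5 pairs and -0.81 ± 0.18 with 4 (limma adjusted p = 0.0448 and 0.422). None of 24 oxidative stress genes was called between 40.5 µM and control, beside 0.214% of all genes tested with 4 pairs. Their median log2 change was -0.01.

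On the remaining gene lists, the calls at 40.5 µM with 4 pairs were on liver and pigment genes. Over all genes tested, 0.214% were called with 4 pairs. Of 36 liver genes tested, TTR and FABP1, the liver fatty acid binding protein gene, fell and none rose. FABP1 had a log2 change of -0.98 ± 0.20 (4 pairs, limma adjusted p = 0.0267) and its call was lost without any 1 of replicates 1, 2, 4 and 5. Of 24 pigment genes, gch2 rose and pnp4a, a purine gene of reflecting pigment cells, fell (4 pairs, log2 change -0.81 ± 0.16, limma adjusted p = 0.0267). The pnp4a call was lost without any 1 of those replicates too. Among 32 genes of drug metabolism and transport none was called. The largest change there was cyp2k6, named after its values were seen, at 2.39 ± 0.53 (4 pairs, limma adjusted p = 0.0669). It had 16.5, 16.5, 13.2, 19.7 and 17.1 normalized counts at 40.5 µM, against 4.98, 5.27, 9.53, 0 and 3.05 in controls, so the groups did not overlap, but at a low level. With 5 pairs its log2 change was 2.0 ± 0.46 (limma adjusted p = 0.13). Against the same controls, the 4-pair change of cyp2k6 was 0.48, 1.41, 1.38 and 2.3 at 0.0405, 0.405, 4.05 and 405 µM.

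The lens crystallins and the exocrine pancreas enzymes, which had list medians of 1.07 and 0.95 between 405 µM and control, had medians of -0.06 and -0.01 between 40.5 µM and control (4 pairs). None of their 49 and 27 tested members was called at 40.5 µM, where 0.214% of all genes tested were called with 4 pairs. At so low a share, a list of this size without a call is no result about its tissue. The same holds for the lists without a call below. Their summed levels varied widely within groups, with crystallins at 31681 to 245864 normalized counts at 40.5 µM and 16832 to 238838 in controls. No member was called among genes of the intestine, muscle, skin keratins, erythrocytes, cell cycle, heat shock, inflammation, odorant reception and hair cells, or estrogen response. Of the estrogen response list only 4 of 14 genes passed the filter on low values.

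**Figure D5:**
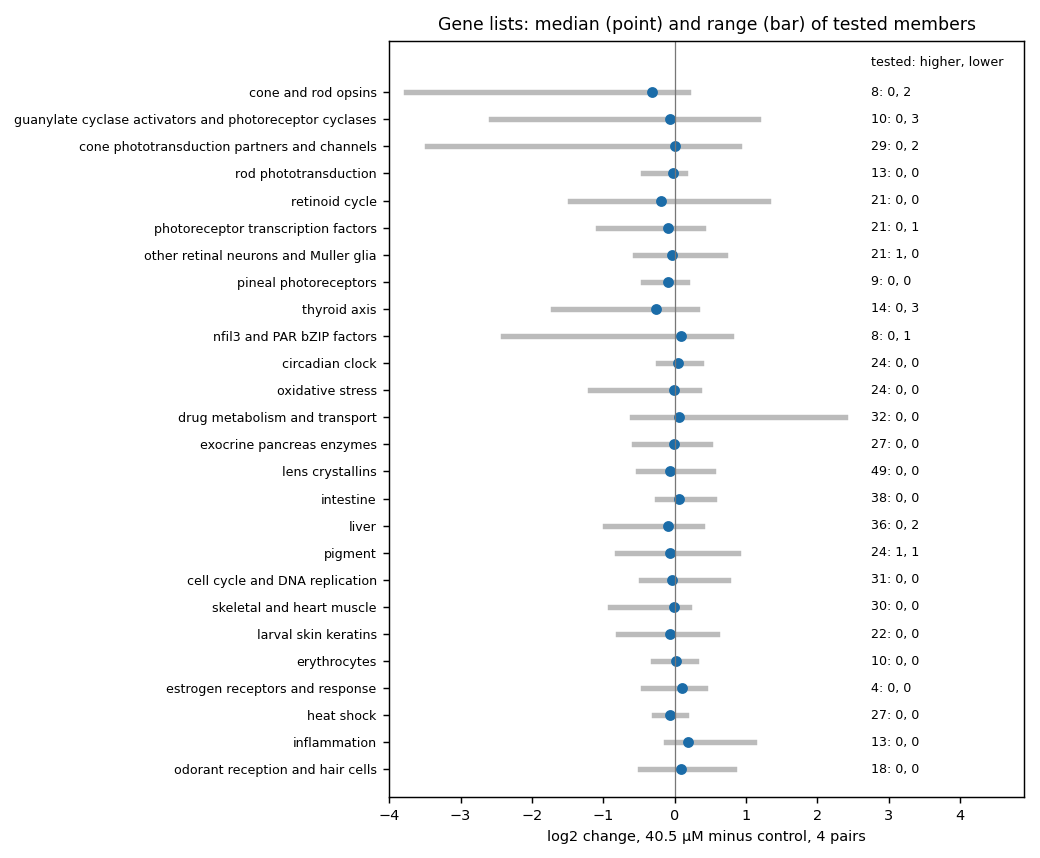
Log2 change between 40.5 µM and control with 4 pairs, as the median (point) and range (bar) over the tested members of 26 gene lists. The numbers at the right give members tested, then those higher and lower by the test. The opsin, cyclase, cone and nfil3 lists have long bars to the left and medians between -0.32 and 0.09.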

How the data were processed

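The resorcinol table deposited by the authors holds a signal: reads counted per Ensembl gene and scaled by a single factor for each library. Per the submitters' processing notes, cutadapt, STAR and DESeq2 were used on GRCz11, and no source used here gives the counting tool or its strand setting. Per the labels' protocols, libraries came from a stranded poly(A) kit. Dividing by the value of 1 read gave whole reads, within 0.1, in 100% of values. Symbols from a reference name table matched 25126 of 27488 identifiers, 3824 of which share a symbol, so an identifier is printed where needed. No pair of libraries within the 40.5 µM or the control group agreed within sampling noise (lowest chi-square per degree of freedom 8.54).

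Values were tested as log2(normalized count + 1) with an intensity trend in limma 3.58.1 (R 4.3.3), with 6 group means and the replicate number as a block, on 30 libraries (5 pairs) or 24 libraries (4 pairs). Standard errors come from these fits. Deviations from group means correlated between same-numbered 40.5 µM and control libraries at r = 0.335 to 0.817 (median 0.527). Between 40.5 µM and control libraries of other numbers, r was -0.558 to 0.336 (median -0.153). Over all groups, the 75 same-numbered pairs had 0.194 or more (median 0.591) and the 300 others at most 0.54 (median -0.177). The ranges overlapped while the medians lay apart, and the numbers were taken to pair the samples. As alternatives, the recovered reads went through edgeR 4.0.16 and DESeq2 1.42.0. The fits were run on simulated reads with known changes at 40.5 µM. With 5 pairs, limma recovered 50.7%, 84.8% and 97% of 1.5-fold, 2-fold and 4-fold changes, with 4 false calls. With 4 pairs it recovered 40.3%, 68.2% and 92.4%, with 9 false calls. No simulated library was made to stand apart, so these rates do not cover a library such as 40.5 µM replicate 3.

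The 26 gene lists, the comparisons and the rule for naming genes were chosen with earlier results of these data known. The rule names every call of the 5-pair fit, up to 15 largest falls and rises of the 4-pair fit (mean of at least 20, same direction in 4 pairs), members of the opsin, cyclase, thyroid and nfil3 lists, and calls on other lists. Of those list members, the ones near 0 are given by their range, and a few genes that the rule names are not reported here. No sequence or coordinate is printed, since no genome was used.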

Additional observations from a re-analysis of the deposited data

Results flagged for a closer look

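Over the 42 called genes, in 12 of 84 groups of 5 libraries (40.5 µM and control), 1 library lay far from the rest. For genes not chosen by their values, chance gives about 1 in 20 such groups, and these genes are not independent. The 42 genes were called without replicate 3, for a shift and small spread in the other 4 replicates. That choice favours replicate 3 lying apart, so 1 in 20 is no measure of chance here. In 8 of the 12 the library was 40.5 µM replicate 3. Its normalized counts were 383 for opn1mw2, 84.2 for GUCA1A (ENSDARG00000100747), 112 for guca1g, 55.8 for KCNV2 (ENSDARG00000062906), 1090.1 for nfil3-6, 98.5 for FHL2 (ENSDARG00000003991), 88.3 for STXBP4 and 103 for synj2bp, each above the other 4 libraries of its group. The last gene, for a synaptojanin-binding protein, was named after its values were seen. In the other 4 groups the library was a control. Control replicate 4 had 1303 for opn1mw2 and 4008 for opn1lw2, above the other controls. Control replicate 1 had 378 for rbp5, a retinol-binding protein gene named after its values were seen, below the other controls. Control replicate 5 had 46.8 for ENSDARG00000113674, above the other controls.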

How the results depend on the processing

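The 5-pair count of 13 calls became 42 without replicate 3 and 0 without each of the others (range over single replicates left out 0 to 42). It was 1 without the replicate block, 0 with the 40.5 µM and control libraries alone, 3 by edgeR, 26 by DESeq2, 0 with array weights, and 45 without the 40.5 and 4.05 µM replicate 3 libraries, a choice made after seeing the data. The 4-pair count of 42 was 8 without the replicate block, 12 with the 40.5 µM and control libraries alone, and 20 to 23 with another replicate left out. It stayed between 31 and 55 under the filters, pseudocounts, quantile normalization, edgeR, DESeq2 and array weights. edgeR called 41 and DESeq2 all 42 of the same genes. The cause of these shifts was not tested. Among uncalled genes near 0, the sign turned for opn1mw1 without replicate 1 or 2 (-0.0579 and -0.0525 with 5 pairs, -0.0837 and -0.0766 with 4), and its range without single replicates was -0.0579 to 0.2 and -0.0837 to 0.26. It turned for DIO1 with 4 pairs (-0.0393 and -0.0294 without replicate 2 or 5, range -0.0393 to 0.1). It turned for DIO2 with 5 pairs without replicate 3 (0.0502, range -0.34 to 0.0502) and without the 40.5 and 4.05 µM replicate 3 libraries (0.22), and with 4 pairs without replicate 5 (-0.10, range -0.10 to 0.29). No called gene turned its sign. At 7.92 to 9.64 M reads per library, genes below the filter were not tested.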
